A study of Homo sapiens with 9 samples.

Results

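The cytosolic ribosomal protein genes were taken as the symbols that begin with RPL or RPS and a number, with or without a closing A, X or L, together with RPLP0, RPLP1, RPLP2 and RPSA. The rule gave 81 of the 60591 symbols in the count table, 49 of the large subunit and 32 of the small subunit, and 80 of them were among the 15944 genes with enough counts to be tested. The remaining member, RPL10L, had 0 or 1 count in every library. The study treated undifferentiated Caco-2 (uCaco-2) cells, a proliferating human colon adenocarcinoma line used as a model of the intestinal epithelium, with agents that stabilise the hypoxia-inducible factor (HIF). Cells received medium with 300 μM cobalt (II) chloride (CoCl2), medium with 5 μM of the oxyquinoline derivative 4896-3212 (OD), or fresh medium (control). All 3 groups were kept for 24 h with 0.5% DMSO in the medium, and each had 3 libraries of mRNA. The libraries of a group are described in the study's methods as biological replicates.

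Each ribosome holds 1 copy of most of these proteins, built around the ribosomal RNAs in the nucleolus, and its assembly is among the costliest tasks of a dividing cell. Most mRNAs of the family begin with a C followed by a run of pyrimidines, the 5′ terminal oligopyrimidine (TOP) motif, through which mTORC1 and the RNA-binding protein LARP1 control their translation. Translation of these mRNAs is known to fall in hypoxia, whereas the libraries here measure only mRNA abundance.

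Most start-site sequences of the family hold a run of pyrimidines, and 9 are shown: 4 of members among those that rose most with CoCl2, 3 of members with low or negative changes, and a parent gene with its paralog. Start sites came from RefSeq (GRCh38.p14), where 64 of the 81 members were matched. Where a symbol had several start sites, the site with the longest run was kept, for the members and all other symbols alike. The windows, run lengths and percentages below therefore show the longest run per symbol, not that of the start used in these cells. Each window runs 5′ to 3′ on the sense strand from 10 bases before the annotated start to 20 bases from it on, and the longest unbroken run of C and T is in capitals.
RPS9 (chr19:54200848-54200877, plus strand): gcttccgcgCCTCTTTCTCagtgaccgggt
RPL13A (chr19:49487598-49487627, plus strand): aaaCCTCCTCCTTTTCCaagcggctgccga
RPL10 (chrX:154398367-154398396, plus strand): ggaggagcgCCTCTTTCCCTTCggtgtggt
RPLP1 (chr15:69452808-69452837, plus strand): ggcgcgagagCCCCTTTCCTCagctgccgc
RPL12 (chr9:127451387-127451416, minus strand): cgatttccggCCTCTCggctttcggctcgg
RPL22 (chr1:6199576-6199605, minus strand): cgctcaCCTCCCTTTCTaactccgctgccg
RPL35 (chr9:124861938-124861967, minus strand): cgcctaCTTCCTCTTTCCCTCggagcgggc
RPS27 (chr1:153990752-153990781, plus strand): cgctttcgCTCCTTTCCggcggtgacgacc
RPS27L (chr15:63157458-63157487, minus strand): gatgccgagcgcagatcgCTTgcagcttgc
A run of at least 8 pyrimidines on this strand was found anywhere in the window, whether or not it opened with a C at the annotated start, in 53 of the 64 members (82.8%) and in 15.4% of the 27305 symbols of the RefSeq table. The median longest run was 11 bases in the members and 5 bases over the whole table. RPL12, RPL22 and RPL35 are only 3 of the members with low or negative changes. Of these 3, RPL22 with 11 bases and RPL35 with 15 have runs of 10 bases or more, as the first 4 do. Among other members with such changes, RPL17 and RPL36 have runs of 6 and 7 bases and RPL10A and RPS25 of 10 each. RPS27 and its paralog RPS27L differ, with runs of 9 and 3 bases.

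The libraries held 15998136 to 24209427 counts. Scaling factors that equalise most genes (TMM, the trimmed mean of M-values) were 1.11 to 1.12 in control, 0.770 to 0.795 in CoCl2 and 1.14 to 1.15 in OD libraries, so CoCl2 libraries were scaled apart from the others. Unless stated otherwise, levels are given as CPM (counts per 1000000) on the TMM scale, in which each count is divided by its library's total times its TMM factor, and "rose" and "fell" refer to that scale at an adjusted p under 0.05 (edgeR quasi-likelihood test, Benjamini-Hochberg adjustment over all tested genes). Epithelial markers were present in every library, with summed levels of 10806 to 11334 CPM in control, 12906 to 13838 in CoCl2 and 10138 to 10693 in OD libraries. Of the 8 markers 7 rose with CoCl2 and 1 fell, the brush-border gene VIL1 (-2.45 on the log2 scale). With OD 2 rose and 3 fell. The defining markers PTPRC and CD3E of leukocytes, COL1A2 and DCN of fibroblasts and CDH5 of endothelium had too few counts to be tested, and the summed leukocyte list was 37.5 to 43.4 CPM in control, 54.6 to 58.7 in CoCl2 and 35.5 to 39.1 in OD libraries. The summed fibroblast list was 18.7 to 21.5 CPM in control, 17.2 to 20.2 in CoCl2 and 26.4 to 27.3 in OD libraries, and of its tested genes COL1A1 and LUM rose with OD (0.59 and 1.78) and COL3A1 fell (-0.40). The endothelial list was 2.25 to 3.41 CPM over all libraries. The part of these markers in the values of the members was not tested. In bulk libraries fewer cells of a kind and less RNA per cell cannot be told apart.

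The members were among the most abundant mRNAs of the cells. They took 5.20 to 5.63% of all counts in control, 5.54 to 5.69% in CoCl2 and 5.21 to 5.31% in OD libraries. The highest control library, replicate 1, lay within the CoCl2 range and the other 2 below it, and neither treated group differed from control beyond the spread (difference of CoCl2 from control 0.217 percentage points, two-sided exact permutation p = 0.3, and of OD from control -0.132 percentage points, exact p = 0.6, where the design allows 0.1 at the smallest). CoCl2 and OD libraries did not overlap, with shares of 5.60 ± 0.080% and 5.25 ± 0.055% (SD, n = 3), a difference of 0.350 percentage points (exact permutation p = 0.1). Per kilobase of coding sequence the median member stood at 1112 CPM in control cells, with the middle of the family between 685 and 1693, a ratio of 2.47 between the quartiles. Coding length was used because the annotated transcript is over 2 times as long in 29 members.

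The highest level per coding kilobase in each group was that of RPS3, a protein of the mRNA entry channel, at 3860.2 ± 264 CPM (SD, n = 3) in control, 5675 ± 276 in CoCl2 and 4209 ± 102 in OD cells. RPS24 (3281 ± 169 in control cells) and RPL37 (3026 ± 203) followed, and the SDs of RPL37, RPL41 and RPL37A overlapped. Members below 100 CPM per coding kilobase in control cells included RPL10L, RPL3L, RPL39L and RPS27L, which are paralogs of other members, and RPL17, RPL36A and RPS10. Proteins of the last 3 are core subunits of every ribosome, and their levels were 19.5, 22.2 and 29.2 CPM per coding kilobase. In the annotation RPL17, RPL36A and RPS10 share exons with the readthrough genes RPL17-C18orf32, RPL36A-HNRNPH2 and RPS10-NUDT3. How the authors' counting split such reads is not given in the sources used here, so the levels and changes of these 3 genes are uncertain. In all, 9 members share an exon with another annotated gene, and RPL13A, RPL22, RPL26 and RPL36 are among them. Processed pseudogenes of the family, 1194 symbols in the table, held 0.733 to 0.901% as many counts as the members.

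With CoCl2, 73 of 80 tested members rose and 4 fell against control, where 40.4% of all tested genes rose and 42.8% fell. The median log2 fold change of the members was 0.52, with the middle of the family between 0.38 and 0.74 and a range of -1.74 to 2.55, beside -0.05 over all tested genes. By more than 2-fold 4 members rose (RPS9, RPL13A, RPL10 and RPL3L) and 1 fell (RPL39L), where 19.9% and 23.4% of all tested genes did. RPL3L had enough counts to be tested through the CoCl2 libraries alone, where it was high, and RPL39L through the control and OD libraries, where it was higher than with CoCl2, so the calls of both with CoCl2 rest in part on that selection. The CPM of the 3 CoCl2 libraries did not overlap with those of control in 77 members, where 83.4% of all tested genes were separated in this way. RPL22, RPL36 and RPL36A did not pass the threshold in either direction.

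These directions depend on the scale, since a CPM on the TMM scale says how a gene stood relative to most other genes. With library size as the sole scaling, 26 members were higher and 25 lower with CoCl2 (25.9% and 58.9% of all tested genes), the median member changed by 0.02 and the median of all tested genes by -0.55. A scaling factor moves all genes alike, so the distance of 0.57 between both medians is fixed under every scaling. It was 0.26 to 0.33 without a count filter or with DESeq2, where more genes with few counts are included. Mitochondrially encoded genes took 6.91 to 7.19% of counts in CoCl2 and 5.98 to 6.21% in control libraries, and the 50 most abundant genes outside the family took 21.04 to 21.65% and 15.04 to 15.41%. Their part in the changes of the members was not tested. Of the counts outside those 50 genes, the members took 7.11 ± 0.13% (SD, n = 3) in CoCl2 and 6.35 ± 0.28% in control cells, with every CoCl2 library above every control library (exact permutation p = 0.1, the smallest possible).

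**Figure D1:**
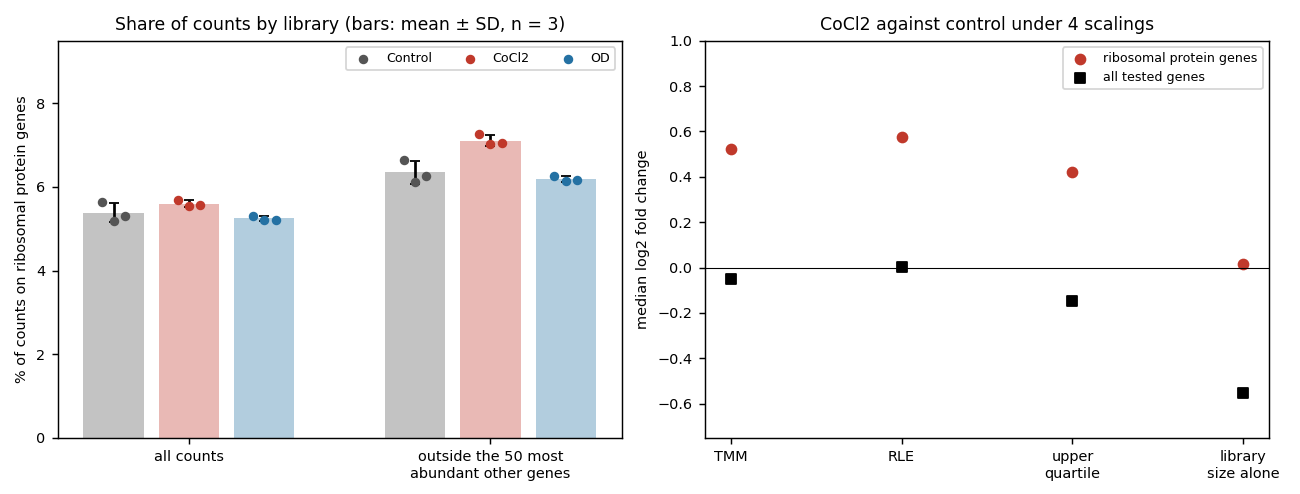
Left, percent of counts on the ribosomal protein genes in each library (points, with bars for means and SD, n = 3), among all counts and among counts outside the 50 most abundant other genes. Right, the median log2 fold change with CoCl2 under 4 scalings: the members (circles) move together with all tested genes (squares), since a scaling shifts all genes alike, and lie at 0.52 under TMM and at 0.02 with library size as the sole scaling.

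The shift was shared with other abundant genes. Among the 911 tested genes outside the family with a mean of at least 200 CPM the median log2 fold change with CoCl2 was 0.60, beside 0.54 for the 67 members at that level. Genes outside the family with a mean under 10 CPM had a median of -0.27. Across the family itself, the change with CoCl2 did not follow the level per coding kilobase in control cells (Spearman correlation across 73 members at 100 CPM per coding kilobase or more, 0.07, as a description, the points sharing the same libraries).

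**Figure D2:**
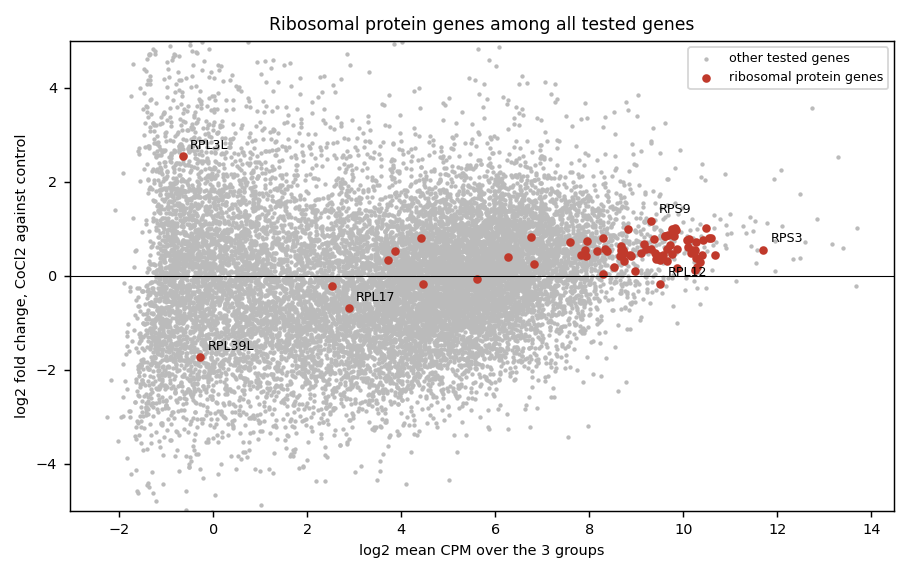
Log2 fold change with CoCl2 against the log2 mean CPM of the 3 groups, TMM scale, with 1 point per tested gene and the ribosomal protein genes in red. Most members sit at the right, at 0 to 1 on the vertical axis among other abundant genes, and RPL3L, RPL39L and RPL17 lie apart at low levels, and 106 other genes lie outside the vertical range of ±5.

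Among the members with many counts, RPS9 rose most with CoCl2. RPS9 (chr19:54200809-54249003, plus strand, GRCh38), an early-binding protein of the small subunit, stood at 459, 422 and 445 CPM in control, 1006, 979.5 and 1000.2 in CoCl2 and 479, 475 and 474 in OD libraries, and every CoCl2 library lay above every other library. Its log2 fold change with CoCl2 was 1.17 ± 0.04 (SE, adjusted p = 8.24e-37). RPL13A (chr19:49487510-49493057, plus strand), known also for a role outside the ribosome in silencing inflammatory mRNAs, stood at 1133, 995 and 1025 CPM in control and 2231, 2032 and 2094 in CoCl2 libraries, a change of 1.01 ± 0.04 (SE, adjusted p = 3.86e-30). RPL10 (chrX:154389955-154409168, plus strand), which joins the large subunit late in the cytoplasm, was at 692, 644 and 632 CPM in control and 1347, 1303 and 1294 in CoCl2 libraries, a change of 1.00 ± 0.04 (SE, adjusted p = 7.16e-33). RPLP1, of the stalk, and RPS20, of the small subunit head, rose by 0.99 and 0.99 on the log2 scale. All 5 of these genes had non-overlapping CoCl2 and control libraries, and RPS9 and RPL13A lie on chromosome 19.

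RPL12 was the abundant member that fell with CoCl2. It encodes the base of the stalk on the large subunit (chr9:127447674-127451406, minus strand) and stood at 827, 752 and 763 CPM in control, 729.6, 664 and 685 in CoCl2 and 724, 673 and 745 in OD libraries. The highest CoCl2 library lay below the lowest control library, and the log2 fold change was -0.17 ± 0.04 (SE, adjusted p = 0.000209). RPL22, an RNA-binding protein that also regulates splicing, stood at 50.7, 57.6 and 53.4 CPM in control and 51.9, 54.8 and 47.9 in CoCl2 libraries, and the groups overlapped (-0.07 ± 0.06 (SE, adjusted p = 0.255)). RPL36, at 359, 311 and 348 CPM in control and 353, 347 and 335 in CoCl2 libraries, did not pass either (0.02 ± 0.04 (SE, adjusted p = 0.599)).

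Shares within the family do not depend on the scaling, and those of some members differed between CoCl2 and control libraries. Of every 1000 counts on the members, RPS9 took 9.02 to 9.33 in control and 13.6 to 14.2 in CoCl2 libraries, a ratio of the means of 1.52, and RPL13A took 21.4 to 22.3 and 29.1 to 30.1. RPL12 took 15.99 to 16.2 in control and 9.51 to 9.86 in CoCl2 libraries, a ratio of 0.601. These 3 shares, chosen for their large changes, differed between the groups by far more than between replicates. Over the 80 tested members, the CoCl2 range of shares lay above the control range in 23, below it in 38 and across it in 19. In CPM, a different measure, 83.4% of all tested genes had non-overlapping CoCl2 and control libraries. Separated shares were thus no more common in the family than separated CPM among all tested genes. The shares add up to 1000 in each library, so rises of some members entail falls of others. RPS2, the small subunit protein at the mRNA entry, took 24.6 to 26.3 per 1000 in control and 18.9 in each of the CoCl2 libraries, and RPL10A, which lies at the tRNA exit, took 10.6 to 10.7 and 7.64 to 7.75. Between OD and control the shares were higher in 20, lower in 31 and overlapping in 29 members, where 68% of all tested genes did not overlap in CPM. Here too, separated shares were no more common.

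**Figure D3:**
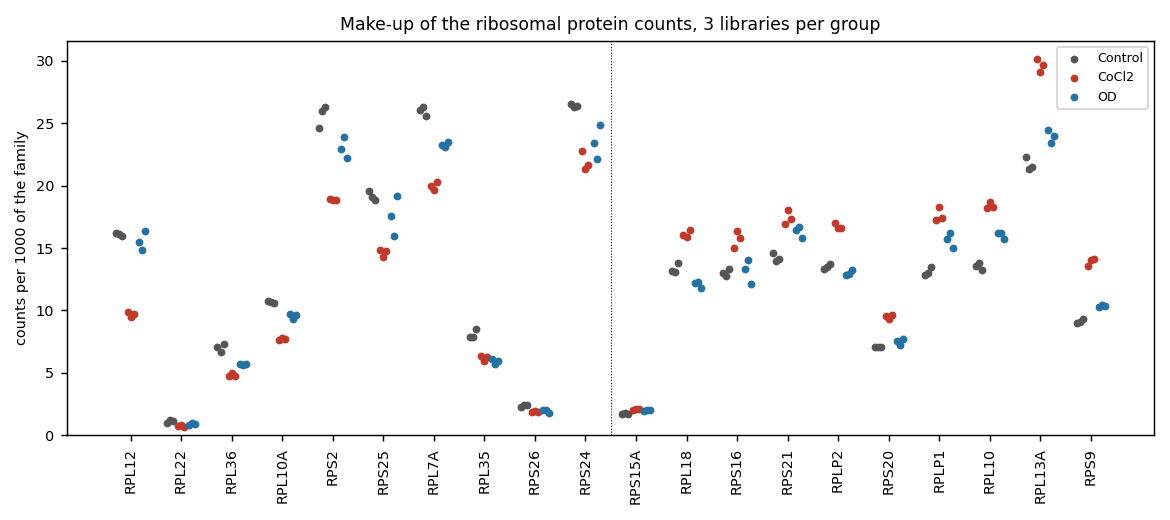
Counts of each gene per 1000 counts on the ribosomal protein genes in each of the 9 libraries, for 10 members with low and 10 with high ratios of CoCl2 to control, each with at least 1 per 1000 in control cells. Left of the dotted line CoCl2 libraries lie below control, with RPL12 lowest in ratio at 0.601, and right of it above, with RPS9 highest at 1.52.

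OD changed the family less and mostly the other way. Against control 10 of 80 members rose and 40 fell, where 32.3% and 33.3% of all tested genes did. The median log2 fold change of the members was -0.11, beside -0.01 over all tested genes, and it was -0.05 without control replicate 1. Other abundant genes shared this shift. At a mean of at least 200 CPM the median with OD was -0.09 for 911 genes outside the family and -0.07 for 67 members. By more than 2-fold 0 members rose (edgeR, and 0 also at an unadjusted p under 0.05 and by DESeq2) and 2 fell (RPL17 and RPL39L), where 9.09% and 4.16% of all tested genes did. OD and control libraries did not overlap in 47 members, where 68% of all tested genes were separated, and 30 members did not pass the threshold.

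Among the abundant members RPL35 and RPL19, which sit near the exit tunnel of the large subunit, fell most with OD. RPL35 (chr9:124857880-124861981, minus strand) stood at 400.4, 366 and 406 CPM in control and 287, 258 and 269 in OD libraries, a change of -0.53 ± 0.04 (SE, adjusted p = 7.17e-16). RPL19 stood at 1371, 1238 and 1296 CPM in control and 1004, 957 and 946 in OD libraries, a change of -0.43 ± 0.04 (SE, adjusted p = 2.29e-14). Every OD library lay below every control library for both. RPL36 and RPL22, which had not passed with CoCl2, fell with OD, with log2 fold changes of -0.38 and -0.36.

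The largest falls with OD were those of the genes with few counts. RPL17 (chr18:49488453-49492508, minus strand), at the tunnel exit, had 207, 213 and 190 counts in control, 100, 86 and 133 in CoCl2 and 110, 98 and 99 in OD libraries, and its change with OD was -1.15 ± 0.11 (SE, adjusted p = 2.16e-14). RPL36A had 133, 147 and 121 counts in control and 77, 119 and 64 in OD libraries (-0.78 ± 0.13 (SE, adjusted p = 4.08e-07)), and RPS10 had 232, 299 and 289 and 201, 161 and 178 (-0.76 ± 0.10 (SE, adjusted p = 7.52e-09)). OD libraries lay below control libraries for these 3 genes, whose readthrough partners make them uncertain. The genes RPL17-C18orf32, RPL36A-HNRNPH2 and RPS10-NUDT3 had at most 1 count in any library.

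The rises with OD were small. RPLP0 (chr12:120196699-120201235, minus strand), the central stalk protein, stood at 1239, 1162 and 1169 CPM in control and 1416, 1387 and 1316 in OD libraries, a change of 0.21 ± 0.04 (SE, adjusted p = 6.57e-06). RPLP1 and RPL10 rose by 0.18 and 0.17, and RPS15A and RPS9 by 0.13 and 0.11. These 5 had non-overlapping OD and control libraries. RPL13A, at 1143, 1063 and 1092 CPM in OD libraries, did not pass (0.06 ± 0.04 (SE, adjusted p = 0.18)).

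**Figure D4:**
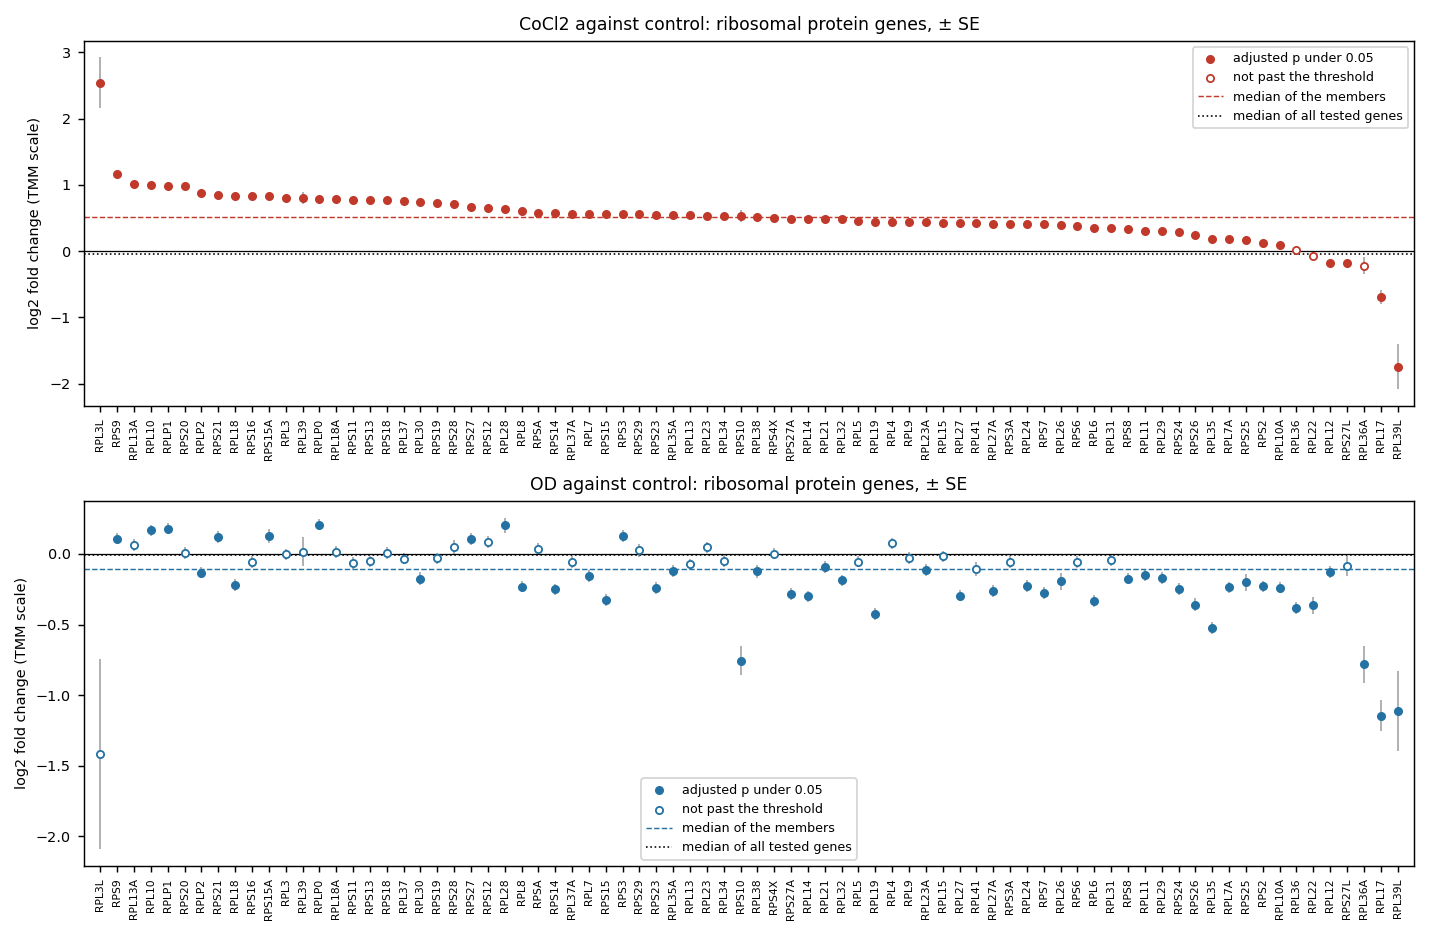
Log2 fold change against control (TMM scale, with SE, n = 3 libraries per group) of 78 of the 80 tested members in the order of their change with CoCl2, for CoCl2 (upper) and OD (lower), where filled points passed the adjusted p of 0.05. Most points lie above 0 with CoCl2, around the median of 0.52, with positive changes in 74 of the 80 under TMM and in 42 with library size as the sole scaling, and near or below 0 with OD, around the median of -0.11.

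Set directly against each other, CoCl2 and OD cells differed in nearly all of the family. In CoCl2 cells 77 of 80 members were higher than in OD cells and 0 lower by edgeR (40.2% and 43.2% of all tested genes), with a median log2 difference of 0.64, beside -0.05 over all tested genes. At a mean of at least 200 CPM the median difference was 0.68 for 911 genes outside the family and 0.64 for 67 members. The 3 members that did not pass were RPL12, RPL39L and RPS27L. At an unadjusted p under 0.05 the count of members lower in CoCl2 was 0, and the count at an adjusted p under 0.05 by DESeq2 was 0. More than 2-fold higher were 5 members (RPS10, RPS9, RPL18, RPLP2 and RPL3L, the last tested through its CoCl2 libraries alone) and 0 were lower by as much, where 17.5% and 23.8% of all tested genes were. The libraries did not overlap in 79 members, where 83.8% of all tested genes were separated. With library size as the sole scaling 40 were higher and 16 lower, beside 23.7% and 61.5% of all tested genes. RPL18, of the large subunit, stood at 1185, 1111 and 1163 CPM in CoCl2 and 570.5, 559 and 537 in OD libraries, a difference of 1.05 ± 0.04 (SE, adjusted p = 1.36e-33), and RPS20 differed by 0.98 on the log2 scale. The comparisons of CoCl2 and of OD with control share the same 3 control libraries.

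With CoCl2 the tested paralogs among the members stood apart from their parent genes, which for RPL39L and RPL3L rests in part on the count filter. RPL39L, a paralog of RPL39 best known from male germ cells (chr3:187120948-187180908, minus strand), had 32, 25 and 23 counts in control, 5, 7 and 8 in CoCl2 and 13, 15 and 13 in OD libraries. It fell with OD (-1.11 ± 0.28 (SE, adjusted p = 0.000489)). Its fitted log2 fold change with CoCl2, -1.74, is given as a description, since RPL39L was tested only through the control and OD libraries, where it was higher. RPL39, of the exit tunnel wall, rose with CoCl2 (0.80 ± 0.10 (SE, adjusted p = 5.34e-09)). Per 1000 counts of RPL39, a ratio no scaling can move, RPL39L had 97.0, 65.6 and 87.8 in control, 10.7, 16.2 and 15.2 in CoCl2 and 40.8, 33.7 and 39.2 in OD libraries, so the groups did not overlap (exact permutation p = 0.1 for OD against control, the smallest possible). RPL3L, the striated-muscle paralog of RPL3 (chr16:1943974-1957606, minus strand), moved the opposite way, with 6, 1 and 8 counts in control, 24, 17 and 35 in CoCl2 and 2, 3 and 1 in OD libraries. Its level stayed under 2 CPM, and its fitted log2 fold change with CoCl2, 2.55, is given as a description because the gene was tested only through the libraries where it was high. RPL3 rose with CoCl2 (0.81 ± 0.04 (SE, adjusted p = 3.78e-28)), and RPL3L per 1000 counts of RPL3 was 0.254, 0.0416 and 0.385 in control and 0.702, 0.635 and 0.860 in CoCl2 libraries.

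RPS27L, a p53-responsive paralog of RPS27, stood at 24.3, 23.5 and 22.7 CPM in control, 19.3, 21.0 and 21.7 in CoCl2 and 22.3, 22.1 and 22.2 in OD libraries, with changes of -0.18 ± 0.07 (SE, adjusted p = 0.0182) and -0.08 ± 0.07 (SE, adjusted p = 0.293). RPS27 itself rose with CoCl2 (0.67 ± 0.04 (SE, adjusted p = 3.77e-23)), so RPS27L went from 49.1, 52.6 and 47.8 per 1000 counts of RPS27 in control to 24.5, 28.9 and 29.5 in CoCl2 libraries. Of 4 paralogs that the naming rule leaves out, 3 lost ground against their parents and 1 gained. RPL22L1 had 794, 734 and 788 counts per 1000 of RPL22 in control, 401, 377 and 393 in CoCl2 and 562, 498 and 607 in OD libraries, RPL26L1 went to 0.526 and 0.704 times its control ratio to RPL26 with CoCl2 and OD, and RPL7L1 to 0.519 and 0.687 times its ratio to RPL7. No group overlapped with control in these 3 ratios (exact permutation p = 0.1 each). RPL36AL went the other way, to 1.77 and 1.52 times its control ratio to RPL36A with CoCl2 and OD (exact permutation p = 0.1 each), where RPL36A is the parent with few counts described above. RPL22 and RPL26 each share exons with another gene, and the parents have near-identical pseudogenes, so the level of each ratio is less certain than its change. FAU, which encodes a ribosomal protein fused to a ubiquitin-like protein, changed with CoCl2 by 0.64 and with OD by -0.55 on the log2 scale.

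**Figure D5:**
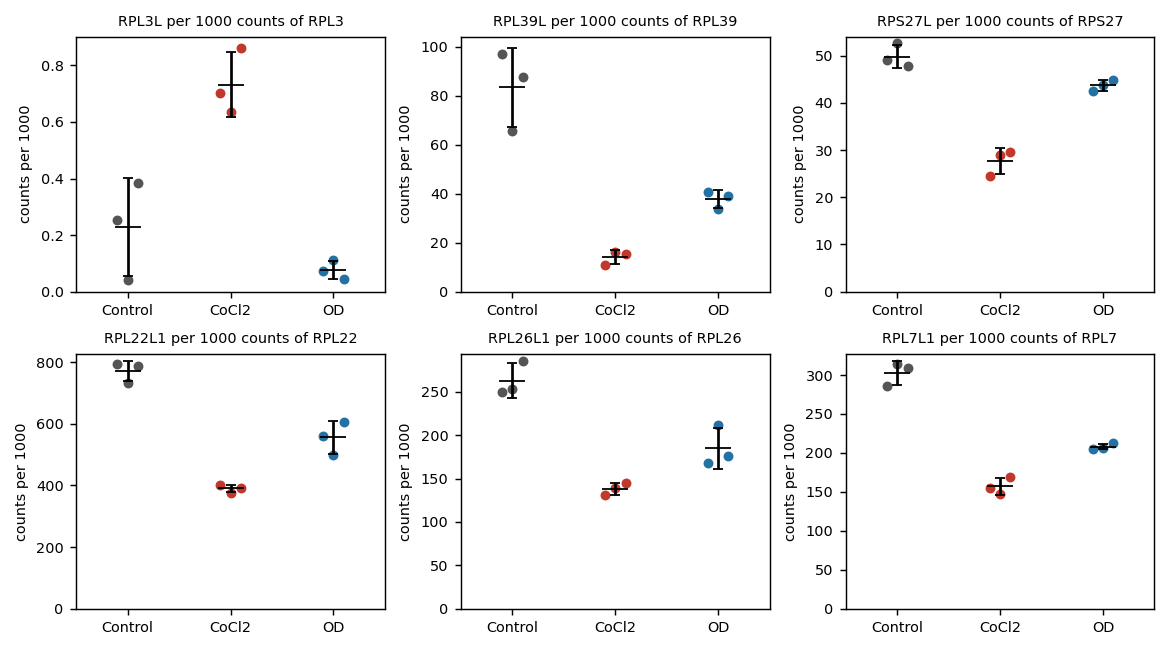
Counts of 6 paralogs per 1000 counts of the parent gene in each library (points), with the mean and SD (n = 3) of each group, where the vertical axes start at 0 and differ between panels. RPL39L, RPS27L, RPL22L1, RPL26L1 and RPL7L1 lie lower in CoCl2 and OD libraries than in every control library, and RPL3L is higher in CoCl2 libraries, between 0.635 and 0.860.

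By structural role, RPLP0, RPLP1 and RPLP2 of the stalk all rose with CoCl2, where 73 of the 80 tested members and 40.4% of all tested genes rose. RPL12, at the base of the stalk, is not counted with them and fell (log2 fold change -0.17). The stalk recruits the translation factors that hydrolyse GTP, and RPLP0, RPLP1 and RPLP2 rose by 0.79, 0.99 and 0.87 on the log2 scale, 3 of 3 members. With OD RPLP0 and RPLP1 rose and RPLP2 fell (-0.13 ± 0.04 (SE, adjusted p = 0.00278)), at 679.8, 628 and 653 CPM in control and 601, 586 and 602 in OD libraries. RPL5 and RPL11 bind the 5S rRNA and can sequester the p53 inhibitor MDM2 when assembly stalls. They rose with CoCl2 by 0.46 and 0.31, less than the median member, and both changes turned to -0.05 and -0.19 with library size as the sole scaling. RPL11 fell with OD (-0.15 ± 0.04 (SE, adjusted p = 0.00242)) and RPL5 did not pass (-0.05 ± 0.04 (SE, adjusted p = 0.221)).

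Of the 8 genes around the polypeptide exit tunnel, 7 rose with CoCl2 and 1, RPL17, fell, with a median of 0.41. Of all 80 tested members 73 rose, with a median of 0.52. RPL4, RPL19, RPL23A, RPL26, RPL31 and RPL35 rose by 0.44, 0.44, 0.43, 0.39, 0.35 and 0.19, and all 6 were below 0 (-0.32 to -0.07) with library size as the sole scaling. With OD, 5 of the 8 fell, with a median of -0.15, beside 40 of all 80 tested members, with a median of -0.11. The 3 that did not pass were RPL4, RPL31 and RPL39. The large subunit as a whole had a median of 0.47 with CoCl2 (42 of 48 rose, 3 fell) and the small subunit 0.56 (31 of 32 rose, 1 fell). With OD 28 of 48 large-subunit and 12 of 32 small-subunit genes fell, with medians of -0.13 and -0.06. Of all tested genes, 40.4% rose and 42.8% fell with CoCl2, and 33.3% fell with OD.

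Members on chromosome 19, which holds 12 of the 81, changed with CoCl2 by a median of 0.78 on the log2 scale, beside 0.48 for the 68 tested members elsewhere and 0.06 for the other 933 tested genes of that chromosome. Their range ran from 0.02 (RPL36) to 1.17 (RPS9). The 31 tested members whose transcript has a GC content of at least 50% had a median of 0.72 and the 49 with less 0.46, whereas the other tested genes went the opposite way, with medians of -0.26 and 0.08. The Spearman correlation of the change with GC content over the 80 members was 0.31, and with the length of the pyrimidine run over 63 members 0.14, with transcript length 0.02 and with the number of exons 0.08. With OD the same 4 correlations were 0.01, -0.03, 0.14 and 0.08. The correlation with the number of pseudogene symbols of a member was -0.23 with CoCl2 and 0.02 with OD over the 80 members. Over the 73 members at 100 CPM per coding kilobase or more, the CoCl2 correlations were 0.25 with GC content and -0.26 with pseudogene symbols. These are descriptions across genes of the same libraries, and genes are not independent replicates. Of the members, 28 host snoRNAs in their introns, and their median with CoCl2 was 0.55, beside 0.50 for the other 52.

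Other mRNAs with TOP motifs were set beside the family. Of 24 other tested genes reported to carry TOP motifs, most of them of translation and 3 of which encode proteins of the ribosome, 19 rose and 5 fell with CoCl2, with a median of 0.53. The list held 25 genes, and EEF1G had 0 counts in every library, for a reason that was not tested. The elongation factors EEF2 and EEF1A1 and TPT1 rose by 1.24, 1.20 and 1.20 on the log2 scale, changes above that of RPS9. EIF3K and IMPDH2 fell, with log2 fold changes of -0.63 and -1.14. With OD 9 rose and 11 fell, with a median of -0.07. Of 14 other genes that host snoRNAs 10 rose and 1 fell with CoCl2, and ZFAS1 and SNHG1 rose by 1.57 and 1.48. Of all tested genes, 40.4% rose and 42.8% fell with CoCl2, and 32.3% and 33.3% with OD.

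Dedicated chaperones escort single ribosomal proteins to the site of assembly. With OD all 9 of the list fell, with a median of -0.62, where 33.3% of all tested genes fell. LTV1, which accompanies the small subunit, and BCCIP, the chaperone of RPL23, changed by -1.32 and -1.09. With CoCl2 4 rose and 4 fell, where 40.4% and 42.8% of all tested genes did. AAMP, the human counterpart of the yeast chaperone of RPL10, rose by 1.39 with CoCl2. RPL23 and RPL10, the clients of BCCIP and AAMP, changed with OD by 0.05 (not past the threshold) and 0.17 and with CoCl2 by 0.54 and 1.00. PDCD2, a chaperone of RPS2, fell with both agents, with log2 fold changes of -0.97 and -0.62, and RPS2 changed by 0.12 and -0.23. Of 15 regulators of TOP mRNAs 8 rose and 7 fell with CoCl2, beside the same 40.4% and 42.8% of all tested genes. With OD 3 rose and 8 fell, where 32.3% and 33.3% of all tested genes did. By more than 2-fold 5 rose with CoCl2: TSC1 (2.03), LARP4 (1.54), TIAL1 (1.43), RHEB (1.36) and RPS6KB1 (1.08). The log2 fold change of LARP1 was 0.55 with CoCl2 and -0.45 with OD, and that of MTOR was -0.56 with CoCl2. EIF4EBP1, the translational repressor under mTORC1, changed by -1.05 with CoCl2 and 0.45 with OD.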

How the data were processed

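Poly(A) mRNA of uCaco-2 cells was sequenced in 9 libraries, 3 each of control, CoCl2 and OD, prepared with a stranded kit and read single-end. The submitters' processing notes name FastQC 0.11.9, cutadapt 2.10, STAR 2.7.5b and GRCh38.p13. The authors deposited raw counts per gene symbol, whole numbers with no normalization. The counter, its strand setting and its treatment of reads shared by copies or overlapping genes are not given in the sources used here. All 9 columns were used. The totals of 15998136 to 24209427 counts set the counting precision, and exact intervals were not needed at these levels.

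Using edgeR 4.0.16 in R 4.3.3, genes were filtered by filterByExpr (minimum count of 10), scaled by TMM and fitted by the robust quasi-likelihood method with 1 mean per group over all 9 libraries. P-values were adjusted by Benjamini-Hochberg over all tested genes. Thresholds were an adjusted p of 0.05, alone or with a log2 fold change above 1 in size. Ratios and shares of counts were compared by two-sided exact permutation. The fit was tested on simulated counts. DESeq2 1.42.0, other scalings and filters, a replicate block and leaving out each library were alternatives.

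The members and gene lists were chosen with earlier results of these data known. Named genes were, per comparison, the 6 largest rises and falls among members past the threshold with non-overlapping libraries, the stalk, 5S, exit-tunnel and paralog lists with parents, and the members with most and fewest counts. RPL22, RPL36, RPL36A, RPL10A, RPL37, RPS2 and RPS24, RPL19 among the falls with OD, and the genes named from other lists were named after their values were seen. Values of some genes are not reported here. Coordinates, exons, lengths and GC content are from GENCODE v44 (GRCh38; canonical transcript).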

Additional observations from a re-analysis of the deposited data

How the results depend on the processing

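With library size as the sole scaling, 26 members were higher and 25 lower with CoCl2 against control, 1 and 2 of them by more than 2-fold, with a median log2 fold change of 0.017, and 40 were higher and 16 lower with CoCl2 against OD, 1 and 1 by more than 2-fold, with a median of 0.092. The OD median was -0.068. In that setting the CoCl2 changes of RPL5 (-0.048), RPL11 (-0.19), RPL4 (-0.066), RPL19 (-0.0651), RPL23A (-0.071), RPL26 (-0.12), RPL31 (-0.15) and RPL35 (-0.32) turned negative, as did the differences of CoCl2 from OD of RPL5 (-0.034), RPL11 (-0.0892), RPL4 (-0.18), RPL17 (-0.10), RPL23A (-0.00106), RPL31 (-0.15) and RPS3 (-0.12). Upper-quartile factors gave medians of 0.42, -0.078 and 0.51 for CoCl2 against control, OD against control and CoCl2 against OD, and 2 members lower in the last, and RLE factors gave 0.68 in the last. The members more than 2-fold higher with CoCl2 against control, 4 in the reported fit, were 7 with RLE factors, 2 with upper-quartile factors, 2 without a count filter, 1 with at least 10 counts in every library, and 2 each with DESeq2 and edgeR on the 6 libraries compared. The 5 more than 2-fold higher in CoCl2 than in OD were 2 with upper-quartile factors, 2 without a count filter and 3 with at least 10 counts in every library. That last filter removed RPL3L, RPL39L and RPL10L, left 0 more than 2-fold lower with CoCl2 and 1 with OD against control, 2 lower with CoCl2 against OD, and medians of -0.075 for OD and 0.59 for CoCl2 against OD. Without a count filter the medians were 0.45 with CoCl2 and 0.57 for CoCl2 against OD, with 1 member lower in the latter, and edgeR on the 6 libraries gave -0.090 for OD.

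Leaving out 1 library at a time, the members more than 2-fold higher with CoCl2 numbered 2 to 7 (7 without control replicate 1, 2 without control replicate 2, control replicate 3 or CoCl2 replicate 1). With OD, 1 (without control replicate 1) to 3 were more than 2-fold lower, 5 (without control replicate 2) to 15 (without control replicate 1) rose, and the median ran from -0.15 to -0.053. The OD change of RPL39 ran from -0.093 to 0.14, that of RPL31 from -0.068 to 0.0024 and that of RPL3, which did not pass, from -0.028 to 0.051. RPL3 with OD also turned positive with RLE factors (0.0042), upper-quartile factors (0.029), library size alone (0.038), at least 10 counts in every library (0.022), DESeq2 on all 9 libraries (0.0059) or on 6 (0.00849), and edgeR on 6 (0.014). The difference in the share of counts between CoCl2 and control was 0.763 percentage points outside the 50 most abundant other genes, and between CoCl2 and OD 0.914 there and 0.500 outside mitochondrially encoded genes. The causes of these moves were not tested, apart from the filters, which remove genes. Deviations of libraries with the same number correlated at -0.005 to 0.038, so no strong shared deviation was visible. This cannot show whether such libraries were handled together. With the replicate block 73 members rose and 4 fell with CoCl2, 12 and 42 with OD, and 77 and 0 between CoCl2 and OD, more than 2-fold calls were 4 and 1, 0 and 2, and 5 and 0, and the medians were 0.52, -0.11 and 0.64. TMM factors computed without the members left these counts as reported. Counts under about 50 per library (RPL3L, RPL39L) limit the precision of those genes, and 3 libraries per group limit all of them. With 3 against 3 libraries an exact permutation test cannot go below 0.1.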
